A study of Mus musculus with 4 samples.

Results

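The Wnt feedback inhibitors are genes that canonical Wnt signalling switches on or that act against the pathway. The 10 genes Wif1, Nkd1, Notum, Axin2, Rnf43, Znrf3, Dkk2, Dkk3, Apcdd1 and Sp5 were chosen by name, with earlier results of these data known. Every probe annotated to any of them, or to an older synonym, was taken from the array table. That gave 16 of 45281 probes, 2 of them listed under a synonym (1 of Notum and 1 of Apcdd1). Of the 10 genes, 9 had at least 1 probe that passed the filter on dim probes, among 13906 genes tested in all.

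Tumours came from the small intestine of 2 ApcMin/+ mice, aged 30 weeks, on the C57BL/6J background. All 4 pools carry the Min allele, which truncates 1 copy of Apc. No wild-type animal and no separate sample of normal tissue enters the comparison. Normal cells within a tumour pool were not measured apart. From each mouse, 3 large tumours (L, 4 to 5 mm across) and 3 small tumours (S, at most 2 mm) were pooled by size. Biotin-labelled RNA of each pool was hybridised to 1 Illumina bead array, which gave 2 arrays per size and 1 array per size and mouse. A pool averages its tumours, and the pools of 1 mouse share the animal.

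In the canonical pathway, Wnt proteins bind Frizzled and Lrp receptors at the cell surface and halt a destruction complex built on Apc and Axin. Beta-catenin then accumulates and, with transcription factors of the TCF/LEF family, switches on target genes that keep intestinal crypt cells dividing. Several of those targets encode inhibitors of the same pathway, a negative feedback loop. Loss of Apc stabilises beta-catenin downstream of the receptors, so inhibitors that act on ligands or receptors do not restore the destruction complex in the mutant cell itself.

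Between 18969 and 19990 probes were detected per array, at a detection p under 0.05. Arrays correlated with r of 0.961 to 0.977 among the large pools and the small pool of mouse 1, and with r of 0.936 to 0.949 between the small pool of mouse 2 and the others, over 20214 probes, which are not independent replicates. The small pool of mouse 2 therefore stands apart, and the mouse 1 difference of each gene is the one measured without it. Differences also spread more widely in the second mouse: in mouse 2, 16%, and in mouse 1, 4.34% of genes were at least 2-fold apart between sizes. All 12 markers of intestinal epithelium were tested, Vil1, Cdh17, Cdx1 and Cdx2 among them, and 11 were detected on every array. Their median log2 difference, large minus small, was -0.19 for mouse 1 and -0.23 for mouse 2. In both mice 9 of the 12 were lower in large pools and 3 were higher. Their summed linear intensity was 65921 and 69386 in large pools of mouse 1 and mouse 2, against 73737 and 83238 in small pools.

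By the brightest probe, Wif1, Nkd1 and Notum were the members with the largest average difference between tumour sizes. Each was higher in the large pool of both mice. Wif1 was 2.84-fold higher, Nkd1 2.56-fold and Notum 2.34-fold, as averages over 2 mice. Sp5, Dkk3 and Apcdd1 were higher by a smaller amount in mouse 1 than those 3 genes. In mouse 2 the log2 differences of Apcdd1 (1.87) and Dkk3 (1.71) exceeded those of Notum (1.55) and Wif1 (1.24). With the mean of a gene's tested probes, the average of Nkd1 (1.01) lay below that of Dkk3 (1.08). Axin2 and Rnf43 lay close to equal in large and small tumours, and Dkk2 was not detected on any array. No member passed the limma test over all 20214 probes, and neither did any other probe (0% called). At an unadjusted p under 0.05 the same test gave 6 of 9 tested members (Wif1, Nkd1, Notum, Dkk3, Apcdd1 and Sp5), all higher in large tumours, beside 7.73% of all probes. An exact permutation test of 2 arrays against 2 cannot go below p = 0.333 (two-sided).

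**Figure D1:**
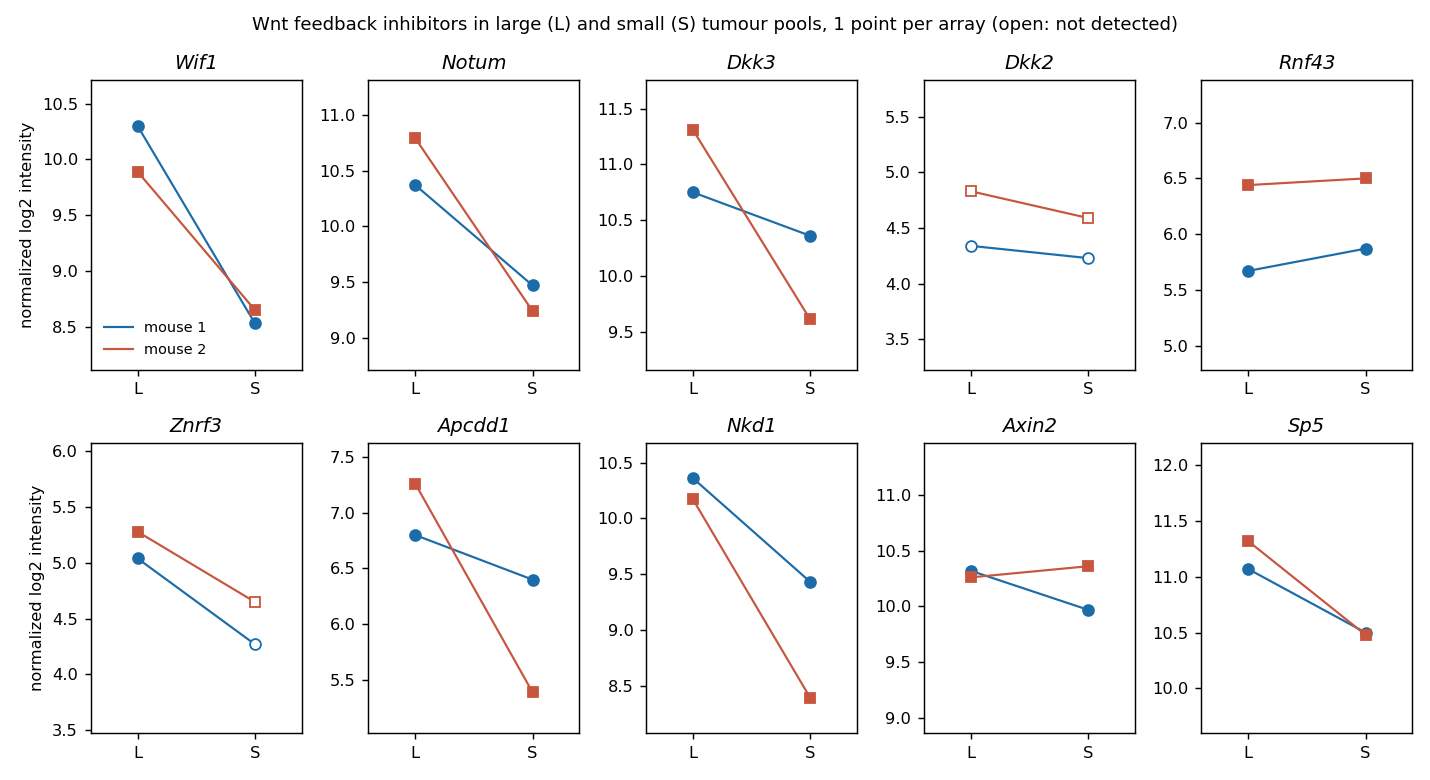
Normalized log2 intensity (vertical axis, the same span of values in every panel) of each of the 10 genes in large (L) and small (S) tumour pools, with 1 point per array, circles for mouse 1 and squares for mouse 2, and a line joining the pools of 1 mouse; open points mark arrays on which the probe was not detected. Both large pools lie above both small pools for 7 genes, beside 22.2% of all tested genes. These 7 include Znrf3, which passed the filter through its large pools alone. Axin2 and Rnf43 overlap, and Dkk2 is open throughout.

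The secreted inhibitors meet Wnt proteins or their receptors outside the cell. Wif1 encodes Wnt inhibitory factor 1, which binds Wnt proteins. Its normalized log2 intensity was 10.30 and 9.89 in the large pools of mouse 1 and mouse 2, against 8.53 and 8.65 in the small pools. The groups did not overlap, and the small pools lay within 0.12 of each other. The log2 difference was 1.77 for mouse 1 and 1.24 for mouse 2, and 1.51 over both (SE 0.30, 95% interval of the fold 1.73 to 4.66, limma adjusted p = 0.569). With the mouse as a block the adjusted p was 0.0718. Before normalization the scanner signal was 1199 ± 55.1 in the large and 379.4 ± 24.6 in the small pool of mouse 1 (bead standard error, which covers the beads of 1 array and not the spread between pools or animals). In mouse 2 it was 1003 ± 57.9 in the large and 492.2 ± 25.1 in the small pool. Wif1 was the only member at least 2-fold higher in large tumours in both mice, as were 0.942% of all tested genes, and 0.496% of genes had a smaller-of-the-pair difference at least as large as that of Wif1.

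Notum encodes a secreted enzyme that removes the lipid from Wnt proteins and so inactivates them. Its brightest probe read 10.37 and 10.79 in the large pools of mouse 1 and mouse 2, against 9.47 and 9.24 in the small pools, in normalized log2 intensity. All large values lay above all small ones, and the difference was 0.90 for mouse 1 and 1.55 for mouse 2 (1.22 over both, SE 0.31, limma adjusted p = 0.588). The gene has 3 tested probes. The probe next in brightness differed by 0.54 and 1.91, and the probe listed under the older name 5730593N15Rik by 0.47 and 1.68. Every Notum probe was thus higher in the large pool of each mouse, with a smaller difference in mouse 1 than in mouse 2.

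Dkk2 and Dkk3 belong to the Dickkopf family, whose founding members block the Lrp coreceptors; Dkk3 is its divergent member. The Dkk2 probe had scanner signals of 51.94 and 65.04 in large and 43.17 and 62.13 in small pools of mouse 1 and mouse 2. Its detection p ran from 0.0568 to 0.955, so Dkk2 was not well above background in either size and no fold is given. Dkk3 was bright: 10.75 and 11.31 in large pools against 10.36 and 9.61 in small pools (normalized log2 intensity). The size groups did not overlap, but the small pools differed from each other by -0.75 (mouse 2 minus mouse 1). The difference between sizes was 0.40 for mouse 1 and 1.71 for mouse 2. Over both mice it was 1.05 (SE 0.38, limma adjusted p = 0.603), and 0.68 without the small pool of mouse 2. A further Dkk3 probe gave 0.49 and 1.73, and the remaining one was detected on 1 array and not tested.

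The membrane-bound inhibitors act at the receptor complex. Rnf43 and Znrf3 encode related ubiquitin ligases that remove Frizzled receptors from the cell surface. Rnf43 had a normalized log2 intensity of 5.67 and 6.44 in large pools of mouse 1 and mouse 2, against 5.87 and 6.50 in small pools. The values overlapped, and the mice differed from each other by more (0.77 in large and 0.63 in small pools, mouse 2 minus mouse 1) than the sizes did within a mouse (-0.20 and -0.06). The difference over both mice was -0.13 (limma adjusted p = 0.942), with a 95% interval of 0.49 to 1.73 as a fold. It came out at 0.19 when the small pool of mouse 2 was left out and at 0.26 when the large pool of mouse 1 was. Each such fit weighs the animals unequally.

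Znrf3 was detected in both large pools (scanner signals 71.24 and 74.55) and in neither small pool (45.58 and 63.95; detection p-values 0.869 and 0.105). It therefore passed the filter through the large pools alone, and a higher value there was a condition of being tested. Its measured mean log2 intensity was 5.16 in large and 4.46 in small tumours. With each small value raised to the lowest detected value of its array, the fold of large over small was 1.27. That value allows for undetected small pools, but not for the spread between pools or the processing. On the measured values the 95% interval of the fold ran from 0.98 to 2.68 (limma adjusted p = 0.652). The measured log2 difference was 0.70, and 0.31 with a background offset of 50. The ratio of scanner signals, large over small, was 1.56 in mouse 1 and 1.17 in mouse 2.

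Apcdd1 encodes a membrane glycoprotein that binds Wnt proteins and Lrp5. Its brighter probe was detected on all arrays and read 6.80 and 7.26 in large pools of mouse 1 and mouse 2, against 6.40 and 5.39 in small pools. Large values lay above small ones in each mouse. The difference was 0.40 for mouse 1 and 1.87 for mouse 2, and 1.14 over both (SE 0.41, limma adjusted p = 0.603). Like Nkd1 and Dkk3, Apcdd1 was lower in the small pool of mouse 2 than in that of mouse 1, by -1.01, and without that pool the difference over both mice was 0.63. With no background correction it was 0.77. The dimmer probe, listed as AB023957, read 4.78 and 5.50 in large pools against 4.90 and 4.53 in small pools. It was above background in the large pool of mouse 2 and the small pool of mouse 1 (detection p-value 0.0513 in the large pool of mouse 1 and 0.205 in the small pool of mouse 2), so the size groups overlapped and this probe did not have the same direction in both animals.

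Inside the cell, Nkd1 and Axin2 act on the signalling complexes. Nkd1 encodes a protein that binds Dishevelled and dampens the signal. Its brighter probe gave a normalized log2 intensity of 10.36 and 10.17 in the large pools of mouse 1 and mouse 2, against 9.43 and 8.39 in the small pools. Large pools were within 0.19 of each other and above both small pools, which differed by 1.04. The difference was 0.93 for mouse 1 and 1.78 for mouse 2, and 1.35 over both (SE 0.40, limma adjusted p = 0.588, and 0.123 when blocked by mouse). It was 0.84 when the small pool of mouse 2 was omitted. A dimmer Nkd1 probe differed by 0.84 and 0.48, the same direction with a smaller difference in mouse 2.

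Axin2 encodes a scaffold of the destruction complex and is a widely used readout of Wnt target activity. It read 10.32 and 10.26 in the large pools of mouse 1 and mouse 2, against 9.97 and 10.36 in the small pools (normalized log2 intensity). The large pools lay between the values of the small pools. The difference was 0.35 for mouse 1 and -0.10 for mouse 2, and 0.12 over both (SE 0.30, limma adjusted p = 0.925). The 95% interval of the fold ran from 0.67 to 1.78. When the small pool of mouse 1 was left out, the log2 difference was -0.08. The scanner signal was 1209 ± 42.8 in the large and 972.4 ± 36.2 in the small pool of mouse 1 (bead standard error). In mouse 2 it was 1298 ± 65.0 in the large and 1493 ± 82.3 in the small pool, so the direction turned between the animals.

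Within each mouse the members differed unequally. The log2 difference of Wif1 exceeded that of Axin2 by 1.42 for mouse 1 and 1.35 for mouse 2. For Nkd1 the excess over Axin2 was 0.58 and 1.88, and for Notum 0.55 and 1.65. For Dkk3 and Apcdd1 it was 0.05 in mouse 1 for each gene, and 1.81 and 1.98 for mouse 2. Wif1 thus stood above Axin2 by a similar amount in both animals, and Dkk3 and Apcdd1 did so in mouse 2. These excesses were not tested.

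**Figure D2:**
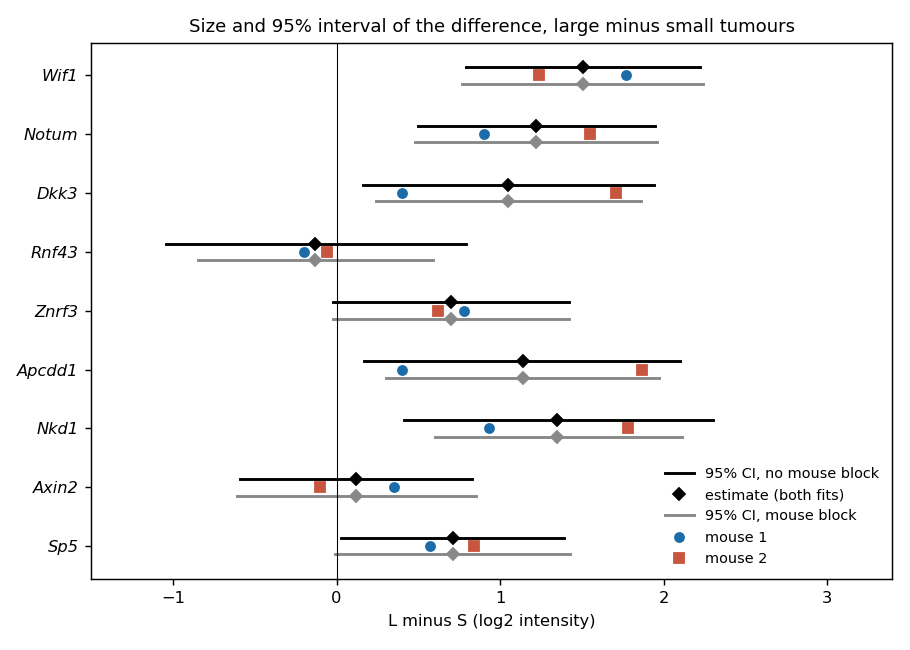
Large minus small log2 intensity (horizontal axis) of the 9 tested genes: circles show mouse 1, squares mouse 2, diamonds the estimate over both mice, and bars the 95% interval of limma without (black) and with (grey) the mouse as a block. The intervals of Wif1, Notum, Dkk3, Apcdd1 and Nkd1 lie above 0 in both fits, before adjustment for the number of probes. Those of Axin2, Rnf43 and Znrf3 span 0 in both fits. That of Sp5 spans 0 with the block (-0.01 to 1.43) but not without it.

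The nuclear member is Sp5, a zinc finger transcription factor that is a direct target of beta-catenin and can repress other targets. Its normalized log2 intensity was 11.07 and 11.32 in large pools of mouse 1 and mouse 2, against 10.50 and 10.48 in small pools. The small pools lay within 0.02 of each other and below both large pools. The difference was 0.57 for mouse 1 and 0.84 for mouse 2, and 0.71 over both (SE 0.29, limma adjusted p = 0.635, and 0.468 when blocked by mouse). Its estimate moved little when the small pool of mouse 2 was left out (0.70).

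Promoter sequence is shown for Sp5, Wif1 and Axin2. Sp5 was the only searched member with matches to the TCF/LEF motif. Wif1 had the largest average difference, and Axin2 is the usual readout. The windows are the 250 bases before a RefSeq transcript start (build GRCm38.p6), 5′ to 3′ in the gene's direction, and capitals mark matches. RefSeq promoter windows were used for 6 of the 10 genes (Wif1, Nkd1, Axin2, Rnf43, Dkk2 and Sp5).
Sp5, chr2:70474673-70474922, plus strand: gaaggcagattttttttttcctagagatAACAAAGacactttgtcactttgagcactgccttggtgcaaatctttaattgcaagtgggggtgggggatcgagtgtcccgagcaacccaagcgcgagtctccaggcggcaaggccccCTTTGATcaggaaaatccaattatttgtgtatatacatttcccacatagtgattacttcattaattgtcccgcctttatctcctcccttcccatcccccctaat
Wif1, chr10:121033754-121034003, plus strand: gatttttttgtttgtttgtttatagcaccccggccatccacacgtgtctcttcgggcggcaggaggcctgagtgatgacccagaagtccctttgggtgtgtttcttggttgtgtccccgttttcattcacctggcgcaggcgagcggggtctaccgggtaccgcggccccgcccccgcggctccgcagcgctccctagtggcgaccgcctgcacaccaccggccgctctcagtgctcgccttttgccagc
Axin2, chr11:108920099-108920348, plus strand: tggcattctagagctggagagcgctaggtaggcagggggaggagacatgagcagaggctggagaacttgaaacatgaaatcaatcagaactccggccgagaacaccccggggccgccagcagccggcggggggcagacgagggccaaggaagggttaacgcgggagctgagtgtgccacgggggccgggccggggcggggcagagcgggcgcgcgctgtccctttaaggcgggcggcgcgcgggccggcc

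The motif was searched as the 4 words CTTTGAA and CTTTGAT, or CTTTGTA and CTTTGTT, on both strands, and no words overlapped one another in these windows. Sp5 held 2 matches: CTTTGTT on the minus strand, from 222 to 216 bases before the start, and CTTTGAT on the plus strand, from 104 to 98 bases before it. Among 32851 windows of the same length, 14.8% held at least 1 match and 1.43% held at least 2. Of the 7 member windows, 1 held a match, beside that 14.8%. The windows of Wif1, Nkd1, Axin2, Rnf43 and Dkk2 held no such letters, and bases beyond the windows were not searched. A match is a description of these letters and not of binding.

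Set against all genes, 7 of 9 tested members were higher in large tumours in both mice, 1 was lower in both (Rnf43) and 1 differed in direction (Axin2). The members were chosen with earlier results of these data known, so the shares beside them are a description and not a test. Over all 13906 tested genes, the shares higher and lower in both animals were 30.7% and 26.7%, and 22.6% had the signs of Axin2. The median log2 difference of the 9 was 0.57 for mouse 1 and 1.24 for mouse 2, against 0.03 and 0.01 over all tested genes. Both counts include Znrf3, which could be tested only because it was higher in large pools; among genes detected on all 4 arrays, 6 of 8 members were higher in both mice, against 31.2% of 11365 genes. Both large pools lay above both small pools for 7 of the 9, as they did for 22.2% of all tested genes. These 7 also include Znrf3, for which a higher value in large pools was a condition of being tested. With the mouse as a block, limma called 0 members and 0.594% of probes. With the block, Wif1 and Nkd1 passed under 2 other settings, the strict filter (adjusted p = 0.0128 and 0.032; 2% of probes called) and median scaling (adjusted p = 0.016 and 0.0471; 2.28% called). Neither passed with the block and no background correction (adjusted p = 0.266 and 0.311) or the authors' values (adjusted p = 0.0725 and 0.115).

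**Figure D3:**
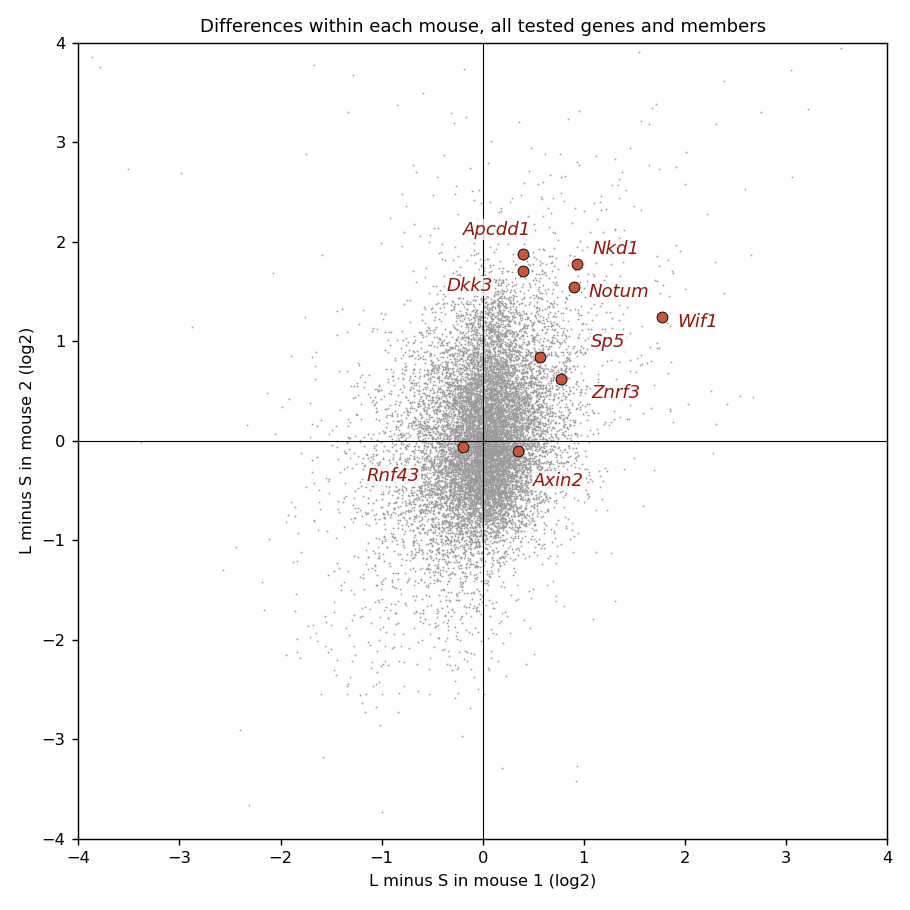
Large minus small log2 intensity in mouse 1 (horizontal axis) and mouse 2 (vertical axis); each grey dot is 1 of 13906 tested genes and each red point a Wnt feedback inhibitor, with 9 genes beyond 4 on either axis not drawn. Of the red points, 7 lie to the right of and above 0, with Wif1 farthest to the right, and Axin2 and Rnf43 lie near the centre.

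The rest of the pathway was read from lists of named genes, on the same scale of log2 differences. No gene of these lists passed limma over all probes, with or without the mouse as a block. The lists too were chosen with earlier results of these data known. Over all tested genes, 30.7% were higher and 26.7% lower in large tumours in both mice. Of 31 other Wnt inhibitors, 21 were tested: 13 were higher in large tumours in both mice and 2 lower. Of the 15 detected on all 4 arrays, 11 were higher and 2 lower. Among them, Shisa2, of a family that retains Frizzled receptors inside the cell, differed by 1.08 for mouse 1 and 1.21 for mouse 2. Tpbg, a membrane protein that inhibits Wnt signalling, differed by 0.85 and 1.54. Tmem88, an inhibitor that binds Dishevelled, differed by 0.08 and 1.33, and the corepressor gene Tle4 by -0.35 and -0.97. Secreted inhibitors that were not detected well enough to be tested included Dkk1, Dkk4, Sfrp2, Sfrp4, Sfrp5 and Sost. The median of the list was 0.16 for mouse 1 and 0.35 for mouse 2.

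Of 22 other Wnt target genes, 20 were tested. In both mice 12 were higher and 0 lower, and the medians were 0.65 and 0.51. Of the 18 detected on all 4 arrays, 10 were higher and 0 lower in both. Tcf7, a TCF/LEF transcription factor, differed by 1.15 for mouse 1 and 1.06 for mouse 2, and Sox4, another transcription factor, by 1.12 and 0.99. Tnfrsf19, a receptor of crypt base cells, differed by 0.95 and 1.27. Smoc2, a matricellular protein of stem cells, differed by at least 1.18 in mouse 1, where its small pool was not above background, and by 1.12 for mouse 2. Lgr5, the R-spondin receptor that marks intestinal stem cells, differed by 2.03 and 0.37. As with Axin2, the mice gave opposite signs for 8 of the 20, among them Myc (0.13 for mouse 1 and -1.62 for mouse 2) and Cd44 (1.12 and -0.70), named here after their values were seen.

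Upstream of these targets, 20 of 35 ligand, R-spondin and receptor genes were tested, with 11 higher and 2 lower in both mice. Of the 14 detected on all 4 arrays, 9 were higher and 2 lower in both. Fzd10 differed by 0.27 for mouse 1 and 2.40 for mouse 2, Fzd6 by 0.55 and 1.07, and Fzd5, a Frizzled receptor of crypt cells, by -0.60 and -1.14. The ligand genes Wnt2, Wnt2b, Wnt9a, Wnt9b, Wnt10b and Wnt11 and the R-spondin genes Rspo1, Rspo2 and Rspo4 were not detected well enough to be tested. Of 21 genes of signal transduction, 15 were tested, with 4 higher and 5 lower in both mice. Detection on all 4 arrays left 3 higher and 4 lower of 13. The medians of the 15 tested genes were 0.13 and -0.39. Among these, Pygo1, a nuclear cofactor of beta-catenin, differed by 0.30 and by at least 0.79. Bcl9l, which links beta-catenin to that cofactor, differed by 0.57 and 0.14. The kinase gene Gsk3a was not above background in large tumours, and its differences were bounded at -0.63 and -0.39.

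Markers of other cell types differed with tumour size too, and in tissue pools fewer cells of a type and less RNA per cell cannot be told apart. Enterocyte markers were lower in large tumours in both mice for 9 of 11 tested (14 listed), with medians of -1.22 for mouse 1 and -1.42 for mouse 2; Ada and Apoc3 passed limma with the mouse as a block (adjusted p = 0.00389 and 0.0355). Their summed linear intensity was 18489 and 43234 in large pools of mouse 1 and mouse 2, against 32434 and 68288 in small pools; the probes of Fabp1 and Fabp2 were not detected well enough to be tested. Fibroblast markers were higher in both mice for 8 of 10 tested (11 listed), with medians of 0.77 for mouse 1 and 0.81 for mouse 2, and Lum passed with the block (adjusted p = 0.0439). Their summed intensity was 12311 and 6796 in large pools, against 8139 and 4676 in small pools, with Postn not tested. It was thus lower in mouse 2 than in mouse 1 at each size. Between the mice (log2, mouse 2 minus mouse 1), Nkd1 differed by -0.19 in large and -1.04 in small pools, and Wif1 by -0.41 and 0.12. Dkk3 differed by 0.56 in large and -0.75 in small pools, and Apcdd1 by 0.46 and -1.01.

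Endothelial markers were higher in both mice for 4 of 7 tested (8 listed, medians 0.53 and 0.74), and their summed intensity was 1769 and 1740 in large pools against 1269 and 1135 in small pools, with Kdr not tested. Smooth muscle markers were higher in both for 4 of 7 (8 listed, medians 0.26 and 0.22), with sums of 14671 and 7141 in large pools against 12771 and 4700 in small pools and Cnn1 not tested. Without the brightest 2 of them, Acta2 and Actg2, the sums were 2356 and 770 in large pools against 1978 and 861 in small pools, so mouse 2 turned. Of 10 enteric neuron and glia markers 5 were tested, and 2 were higher in both mice (medians 0.05 and 0.68); their sums were 398 and 317 in large pools against 447 and 208 in small pools, and S100b, Sox10, Gfap and Snap25 were among those not detected well enough to be tested. Leukocyte markers went both ways, with 2 higher and 3 lower in both mice among 7 tested (10 listed) and medians of -0.29 for mouse 1 and 0.04 for mouse 2. S100a8 and S100a9, calgranulin genes of neutrophils, were the higher ones and passed with the block (adjusted p = 0.0206 and 0.0218). The leukocyte sums were 3312 and 4078 in large pools against 1571 and 806 in small pools, and Itgam was among those not tested. S100a8 and S100a9 made up 2817 and 3661 of the large-pool sums, against 865 and 354 of the small-pool sums. The other 5 markers summed to 495 and 417 in large pools against 707 and 452 in small pools, the opposite direction. The part of these cell types in the differences of the inhibitors was not tested.

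**Figure D4:**
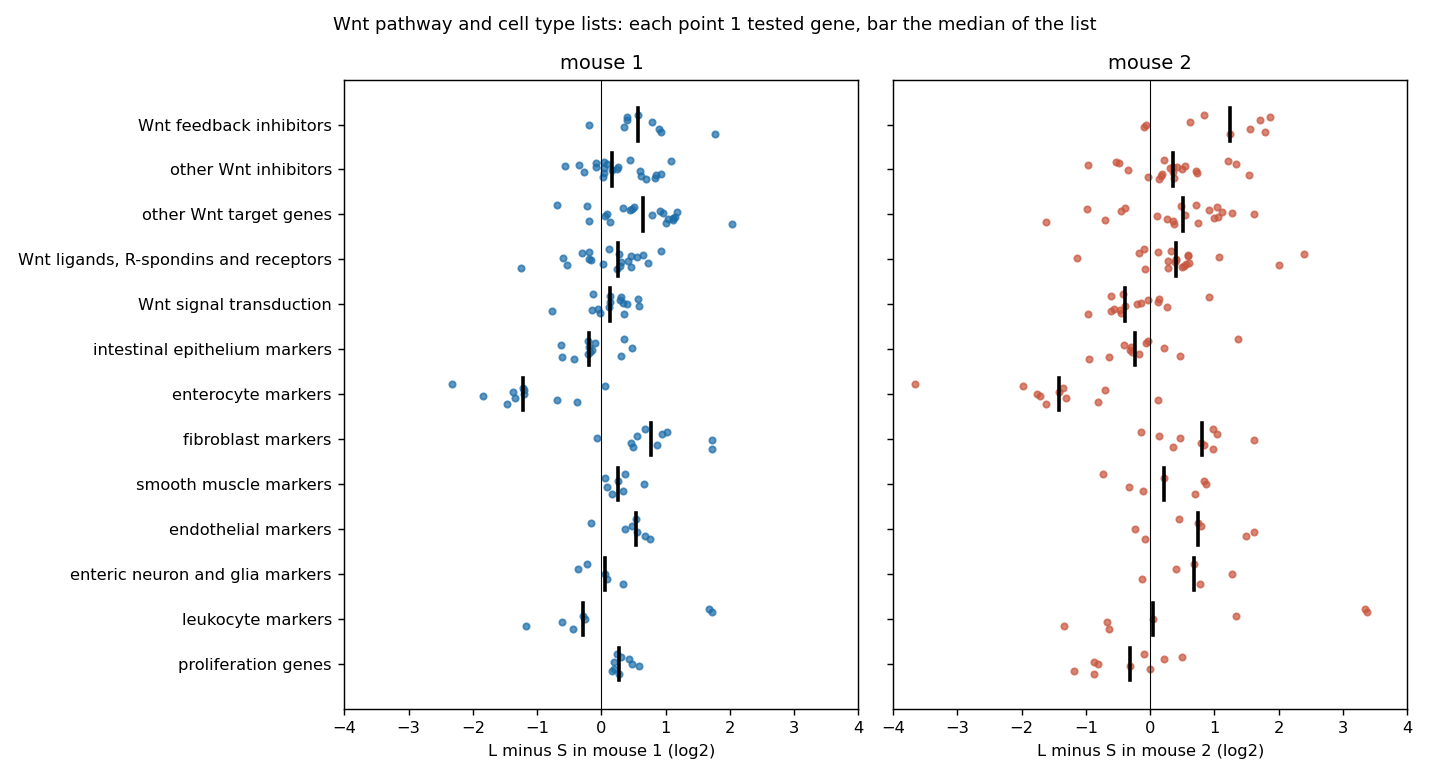
Large minus small log2 intensity (horizontal axis) in mouse 1 (left) and mouse 2 (right) for the tested genes of each list; each point is 1 gene and the black bar is the median of the list. The median of the Wnt feedback inhibitors was 0.57 for mouse 1 and 1.24 for mouse 2, and that of enterocyte markers was -1.22 and -1.42.

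Genes with the most similar profile were found by the Euclidean distance between log2 values centred on each gene's mean over the 4 arrays. For Wif1 they were Tenm4 (distance 0.26), BC030183 (0.27) and Habp2 (0.29). Nkd1 lay nearest to Ccdc80 (0.14), Tceal9 (0.14) and Hebp2 (0.16), and Notum to BC022687 (0.12), Lgals7 (0.13) and Cib2 (0.16). Axin2 had Elp3, Ppil2 and Chaf1b at 0.03 each. Among the members themselves, the nearest to Wif1 was Notum (0.70), the nearest to Notum was Dkk3 (0.42), and the nearest to Nkd1 was Apcdd1 (0.51). Each of these members lay farther away than the 3 genes named for it, and with 4 arrays many genes share a profile.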

How the data were processed

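Per the labels, total RNA of 4 tumour pools was biotin-labelled for Illumina bead arrays. The authors deposited linear bead intensity values that were neither normalized nor background-subtracted, per the file headers (export by gene expression module 3.2.6); the submitters' processing notes name BeadStudio. The deposited detection p-value compares a probe with negative control probes. The authors also deposited normalized intensity values of 15274 probes, by a method not given in the sources used here.

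Background correction and normalization used the neqc function (limma 3.58.1, R 4.3.3; background from detection p-values, offset 16, quantile normalization, log2). A probe was tested if its detection p was under 0.05 on 2 or more arrays, and the brightest tested probe stands for a gene. Symbols were updated through RefSeq names (GRCm38.p6): 27760 of 45281 probes carried a current name, 7994 an older one, and 9527 could not be matched. Large and small tumours were compared by limma (lmFit, eBayes; two-sided) with Benjamini-Hochberg adjustment over all tested probes and a threshold of 0.05, without the mouse as a block; the block was an alternative. The labels tie both pools of a number to 1 mouse. As a check, small-pool and large-pool differences between the mice had r = 0.250 across 13906 genes. The fits were tested on simulated data. The p-values rest on the spread between 2 animals and on a spread shared across probes, and the number of arrays limits the precision.

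The members and lists were chosen with earlier results of these data known. Every member was named, as were pathway genes at least 2-fold apart in both mice and up to 3 more per list with the largest same-sign difference, and the 3 nearest profiles of Axin2, Nkd1, Notum and Wif1. Alternatives covered background correction, normalization, filter, probe choice, block and leaving out an array.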

Additional observations from a re-analysis of the deposited data

How the results depend on the processing

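All 7 members that were higher in large tumours in both mice kept that direction under every background, normalization and filter alternative that held them. They also kept it with the mean of a gene's tested probes, where Apcdd1 differed by 0.14 in mouse 1 and 1.42 in mouse 2. The dimmer Apcdd1 probe alone did not keep it (-0.12 and 0.97). Znrf3 had no value under the authors' values or the strict filter. With no filter, Dkk2, below background on every array, made the count 8 of 10. With no probe called in the reported fit, the mouse as a replicate block called 120 probes (68 higher and 52 lower) and 0 members. The block called 322 probes (146 higher, 176 lower) and 2 members with the strict filter, 460 probes (178 higher, 282 lower) and 2 members with median scaling, 36 probes and 0 members with the authors' values, and 0 probes with no background correction. The cause was not tested. The 2 members were Wif1 and Nkd1 under each of those settings. Leaving out 1 array, unblocked, called 0 to 70 probes and 0 members; 70 came without the large pool of mouse 1 and 19 without that of mouse 2, with the lone pool of a size assumed to vary like the others. Single members kept direction and side of the threshold in 133 of 140 alternatives. Many of these settings called no probe at all, so staying below the threshold there says nothing particular to the members. The mean of a gene's tested probes had no p-value, so only its direction was read. Of the changes, 4 were the calls of Wif1 and Nkd1. The other 3 were changes of sign with an array left out: Axin2 took values of -0.08 to 0.32, and Rnf43 of -0.51 to 0.26 (0.19 when the small pool of mouse 2 was dropped). The difference of Znrf3 ranged from 0.31 (offset 50) to 0.90, and that of Apcdd1 between 0.63 and 1.64. Signals near background limit Znrf3, Rnf43 and Dkk2. The blocked adjusted p of Notum, 0.162, changed no call.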

Other observations

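For 7 of 9 tested proliferation genes large tumours were higher in mouse 1 and lower in mouse 2, beside 22.6% of all tested genes. Among the 7, Pcna (-0.01) and Aurkb (-0.10) lay close to 0 in mouse 2. Of 9 tested, 2 were higher in large tumours in both mice and 0 lower in both, beside 30.7% and 26.7% of all tested genes. The median of the list was 0.28 for mouse 1 and -0.32 for mouse 2. Top2a, the DNA topoisomerase of dividing cells, differed by 0.17 for mouse 1 and -1.18 for mouse 2, and Mki67, the Ki-67 antigen gene, by 0.28 and -0.88. No gene of this list passed limma with the mouse as a block.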
